A study of Drosophila melanogaster with 24 samples.

Results

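The genes described here are the small heat shock protein genes Hsp22, Hsp23, Hsp26, Hsp27, Hsp67Ba and Hsp67Bc of Drosophila melanogaster, 6 of the 15406 genes counted in each library. They were taken by name, with no threshold on a measured value, and earlier results of these data were known when they were chosen. Their levels were followed in ovaries and testes after flies were moved from a cool to a warm temperature.

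Small heat shock proteins are ATP-independent chaperones built around an alpha-crystallin domain. They bind unfolding proteins and hold them in a state from which the Hsp70 machinery can refold them. In Drosophila their genes sit together at cytological region 67B, respond to heat through the heat shock factor Hsf, and are also transcribed without heat during development, where ecdysone induces several of them. In the ovary Hsp26 and Hsp27 messages are made in nurse cells and passed to the oocyte, and in the testis several of these proteins are present in germline and somatic cells.

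The series holds 24 RNA-seq libraries, in 12 groups of 2 independent dissections, from gonads of flies raised at 18 °C to 5 days of age and then kept warm for 0, 12 or 24 h. The ovary groups were tra2ts, XX females with the temperature-sensitive alleles tra2[ts1]/tra2[ts2] of the splicing factor tra2, and w1118 females, whose background the tra2ts flies share. The testis groups were TraF and Control. TraF were XY males in which UAS-tra[F], the female form of tra, was driven by tub-Gal4. It was meant to be held off by tub-Gal80[ts] until the shift. Control males had tub-Gal4 and tub-Gal80[ts] alone. The study was built to switch the sex determination protein DSX between its isoforms, and it asked which transcripts follow that switch.

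The tub promoter is active in nearly all cells, so TraF was not limited to 1 cell type, and the stocks of ovaries and testes differed. The extraction notes give the warm temperature as 29 °C for ovaries and 30 °C for testes, while the treatment text gives 29 °C for all, so tissue, stock and temperature cannot be told apart. The groups at 0 h were not warmed, so for heat-responsive genes each time course is also a comparison of 18 °C with the warm temperature. Flies were held 15 to 20 to a vial, and per the labels egg chambers from stage 10 on were discarded at dissection.

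Library totals of gene counts spanned 16136939 to 32782474. Levels are counts scaled to library size (CPM) on 1 scale over all 24 libraries. In TraF testes tra itself stood at 21.1 and 25.5 CPM at 0 h, 263 and 239 CPM at 12 h and 264 and 313 CPM at 24 h. The Control libraries spanned 5.85 to 12.1 CPM over all times. At 0 h Control stood at 10.4 and 12.1 CPM, so tra was already higher in TraF before the shift. The tra2ts alleles act on the protein, so tra2 counts do not check that label. Summed ovary germline and follicle markers ran from 18400 to 45600 CPM in ovaries and from 22 to 29.3 CPM in testes, and testis markers from 7190 to 12300 CPM in testes and from 0 to 0.289 CPM in ovaries. Late eggshell markers summed to 4980 to 33000 CPM in ovaries, though the labels state that egg chambers from stage 10 on were discarded. How complete that removal was, was not tested. Other cells varied between libraries: accessory gland markers reached 3040 CPM in Control testis 12 h replicate 1. In the other testis libraries they were higher at the later times without overlap, at 4 to 7.86 CPM at 0 h, 9.13 to 10.5 CPM at 12 h and 12.1 to 14.8 CPM at 24 h.

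The 6 genes lie on chromosome arm 3L within a stretch of 9 annotated genes, in the order Hsp67Bc, CG4456 (also called Hsp67Bb), Hsp22, CG4461, Hsp26, Hsp67Ba, asRNA:CR43481, Hsp23 and Hsp27. Hsp67Bc, Hsp26 and Hsp67Ba are on the minus strand and the others on the plus strand. The exonic length was 987 bp for Hsp67Bc, 1900 bp for Hsp22, 1010 bp for Hsp26, 1733 bp for Hsp67Ba, 884 bp for Hsp23 and 1632 bp for Hsp27. These positions come from a later annotation than the one behind the counts, so no coordinates are given.

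The overlaps limit 2 of the 6. All 1900 exonic bases of Hsp22 also belong to CG4456 on the same strand. Of the exonic bases of Hsp67Ba, 1316 (75.9%) overlap the antisense transcript asRNA:CR43481, and the libraries did not record strand, so their reads cannot be told apart. Hsp27 shares 49 bases (3%) with another gene, and Hsp23, Hsp26 and Hsp67Bc share none.

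Hsp22, which encodes a mitochondrial small heat shock protein, had 0 counts in each of the 24 libraries, which allows up to 0.0885 to 0.192 CPM depending on the library (3 counts, counting error only). It was therefore not tested, and 5 of the 6 genes entered every test below. Of the 343 genes whose exons were wholly shared with other genes, 280 (81.6%) had 0 counts in all 24 libraries, against 567 of the other 14389 genes (3.94%). The bound thus limits reads assigned to Hsp22, and the part of the overlap in its 0 counts was not tested. Its overlap partner CG4456 was counted at 0 to 0.0819 CPM in ovaries and 5.9 to 21.5 CPM in testes.

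A gene is called below where edgeR's quasi-likelihood test gave an adjusted p under 0.05 (Benjamini-Hochberg, over all genes tested in that comparison), and the standard error (SE) belongs to the log2 fold change. The warm comparison of a tissue is the mean, over its 2 genotypes, of the change from 0 h, so that it rests on 4 libraries per time. In ovaries 1 of the 5 tested genes was called higher at 12 h and at 24 h, where 2.32% and 3.9% of all 8784 tested genes were called in either direction and 0.911% and 1.86% higher. In testes 3 were called higher at 12 h and 3 higher with 1 lower at 24 h, where 3.53% and 12.2% of 12083 tested genes were called in either direction. At 12 h 1.7% of them were called higher, and at 24 h 6.79% higher and 5.43% lower. The median log2 fold change of the 5 genes was 0.78 at both times in ovaries and 0.58 and 0.66 in testes, and that of all tested genes lay between -0.01 and 0.02. As whole gonads were sequenced, a change in the share of a cell type and a change in RNA per cell cannot be told apart. Where warmed and unwarmed libraries are said below not to overlap, the share of all genes with such a separation was not counted. In testes 2156 of the 12083 genes at 12 h and 3230 at 24 h had an unadjusted p under 0.05.

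**Figure D1:**
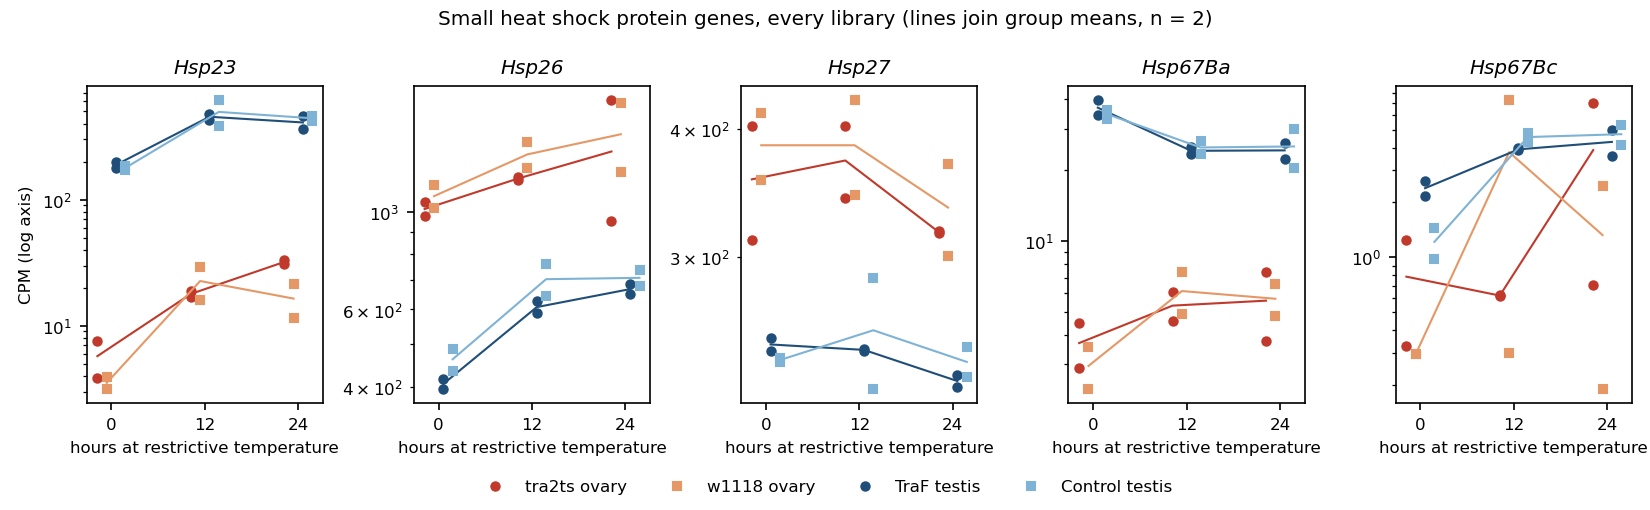
CPM (log axis, a separate range for each gene) of 5 small heat shock protein genes by hours at the restrictive temperature; each point is 1 library, points are set slightly apart by group, and lines join the means of 2 libraries. Hsp23 was low in ovaries, between 3.15 and 32.9 CPM, and high in testes, between 173 and 611 CPM, and rose in both.

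Hsp23, a cytoplasmic chaperone, was the gene with the clearest change. In tra2ts ovaries it stood at 7.61 and 3.86 CPM at 0 h, 18.9 and 16.8 CPM at 12 h and 32.9 and 31.1 CPM at 24 h. In w1118 ovaries it stood at 3.89 and 3.15 CPM, then 29.2 and 16 CPM, then 21.3 and 11.5 CPM. Every warmed ovary library lay above every unwarmed one in both genotypes.

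The log2 fold change in the ovary warm comparison was 2.15 (SE 0.293, adjusted p = 0.013, edgeR) at 12 h and 2.38 (SE 0.296, adjusted p = 0.00447, edgeR) at 24 h. The call at 12 h did not survive the removal of single libraries. It was lost on removal of replicate 2 of tra2ts or of w1118 at 0 h, of replicate 1 of w1118 at 12 h or of either tra2ts library at 12 h, where the adjusted p from edgeR ran from 0.0577 to 0.086. The call at 24 h held without any one library, with edgeR's adjusted p at most 0.0386. Within 1 genotype, Hsp23 was called in tra2ts ovaries at 24 h (2.52, adjusted p = 0.0457, edgeR) but not at 12 h (1.65, adjusted p = 0.204), and in w1118 ovaries at neither time (2.65 and 2.24, adjusted p = 0.0764 and 0.0714), with 0.33%, 0.0228%, 0.0797% and 0.273% of genes called. DESeq2 called tra2ts at 12 h (adjusted p = 0.0107) and w1118 at 12 h (adjusted p = 1.08e-06) and 24 h (adjusted p = 6.84e-05). With no filter on low counts edgeR also called w1118 at both times (adjusted p = 0.00517 and 0.0103). The tra2ts call at 24 h was lost without any one of its 4 libraries.

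In TraF testes Hsp23 stood at 179 and 198 CPM at 0 h, 477 and 430 CPM at 12 h and 457 and 360 CPM at 24 h. In Control testes it stood at 184 and 173 CPM, then 611 and 380 CPM, then 459 and 423 CPM. The warmed and unwarmed testes did not overlap, and the highest value belonged to Control 12 h replicate 1, the library with the high accessory gland markers. Without this library the testis warm comparison of Hsp23 at 12 h was 1.18 (adjusted p = 0.000881, edgeR). The same markers were also higher in the other warmed testis libraries than at 0 h, and the part of those cells in the testis results was not tested.

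That comparison gave 1.36 (SE 0.147, adjusted p = 0.00126, edgeR) at 12 h and 1.20 (SE 0.146, adjusted p = 0.000829, edgeR) at 24 h. Leaving out each library in turn kept both calls, with log2 fold changes from 1.18 to 1.5 and from 1.10 to 1.28. Within genotypes, edgeR called Hsp23 in TraF testes at 12 h (1.26, adjusted p = 0.0267) and 24 h (1.09, adjusted p = 0.0243) and in Control testes at 12 h (1.46, adjusted p = 0.0192) and 24 h (1.31, adjusted p = 0.0108). The background of calls in those comparisons was 0.679%, 2.52%, 0.306% and 2.69%. With 2 libraries a group, these calls within a genotype were lost without most single libraries (adjusted p up to 0.307).

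Hsp26, a small heat shock protein known for its abundance in the female germline, was high in ovaries from the start. It stood in tra2ts ovaries at 1050 and 979 CPM at 0 h, 1200 and 1180 CPM at 12 h and 951 and 1790 CPM at 24 h. In w1118 ovaries it stood at 1150 and 1020 CPM, then 1440 and 1260 CPM, then 1770 and 1230 CPM. The group means were higher after warming, but tra2ts 24 h replicate 1, at 951 CPM, was the lowest ovary library of all.

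In ovaries the warm comparison of Hsp26 did not pass, at 0.26 (adjusted p = 0.588, edgeR) at 12 h and 0.48 (adjusted p = 0.298, edgeR) at 24 h. Leaving out each library in turn moved the value at 24 h between 0.17 and 0.69, with edgeR's adjusted p from 0.0491 to 0.656. It was called only without tra2ts 24 h replicate 1 (0.69, adjusted p = 0.0491, edgeR). In ovaries the late eggshell markers spanned 4980 to 9590 CPM at 0 h, 9150 to 15200 CPM at 12 h and 7050 to 33000 CPM at 24 h. Muscle markers in ovaries spanned 645 to 1740 CPM at 0 h and 236 to 996 CPM at 24 h. The part of these cells in the ovary values, those of Hsp23 included, was not tested.

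In TraF testes Hsp26 stood at 396 and 417 CPM at 0 h, 626 and 589 CPM at 12 h and 686 and 649 CPM at 24 h. In Control testes it stood at 489 and 436 CPM, then 762 and 644 CPM, then 736 and 680 CPM. Again no warmed library fell to the level of an unwarmed one. The warm comparison gave 0.58 (SE 0.102, adjusted p = 0.0126, edgeR) at 12 h and 0.66 (SE 0.102, adjusted p = 0.00308, edgeR) at 24 h.

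The 12 h call of Hsp26 was lost without TraF 0 h replicate 1, TraF 12 h replicate 1 or Control 0 h replicate 2 (adjusted p from 0.055 to 0.0681, edgeR), and the 24 h call held without any one library. By genotype the change at 24 h was 0.69 in TraF (adjusted p = 0.0353, edgeR) and 0.62 in Control testes (adjusted p = 0.0496, edgeR), and both were lost without any one of the 4 libraries behind them. The Control value also missed the threshold with RLE scaling (adjusted p = 0.0575, edgeR) and with no filter on low counts (adjusted p = 0.0607, edgeR). Gut markers in the same testes spanned 2.68 to 30.9 CPM at 0 h. At 12 h they spanned 19.7 to 83.1 CPM and at 24 h 32.5 to 138 CPM. They were higher at the later times within each genotype, and higher in Control than in TraF at each time. At 0 h they stood at 2.68 and 3.64 CPM in TraF and at 30.9 and 24.8 CPM in Control testes. Their part in the testis results, also in those between genotypes, was not tested.

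Hsp27, a chaperone found in nuclei and cytoplasm whose gene is a classical ecdysone target, was nearly level. In tra2ts ovaries it stood at 403 and 312 CPM at 0 h, 403 and 343 CPM at 12 h and 318 and 317 CPM at 24 h. In w1118 ovaries it stood at 415 and 357 CPM, then 427 and 345 CPM, then 301 and 370 CPM. The times overlapped in each ovary genotype.

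In TraF testes Hsp27 stood at 250 and 243 CPM at 0 h, 243 and 244 CPM at 12 h and 230 and 224 CPM at 24 h. In Control testes it stood at 237 and 239 CPM, then 223 and 286 CPM, then 245 and 229 CPM. All 12 testis libraries thus lay between 223 and 286 CPM. Its log2 fold change was 0.02 (adjusted p = 0.959, edgeR) and -0.17 (adjusted p = 0.601) in ovaries and 0.03 (adjusted p = 0.945) and -0.07 (adjusted p = 0.733) in testes, at 12 h and 24 h. The sign of both values at 12 h turned when 1 library was left out, with ranges of -0.06 to 0.09 and -0.07 to 0.12.

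**Figure D2:**
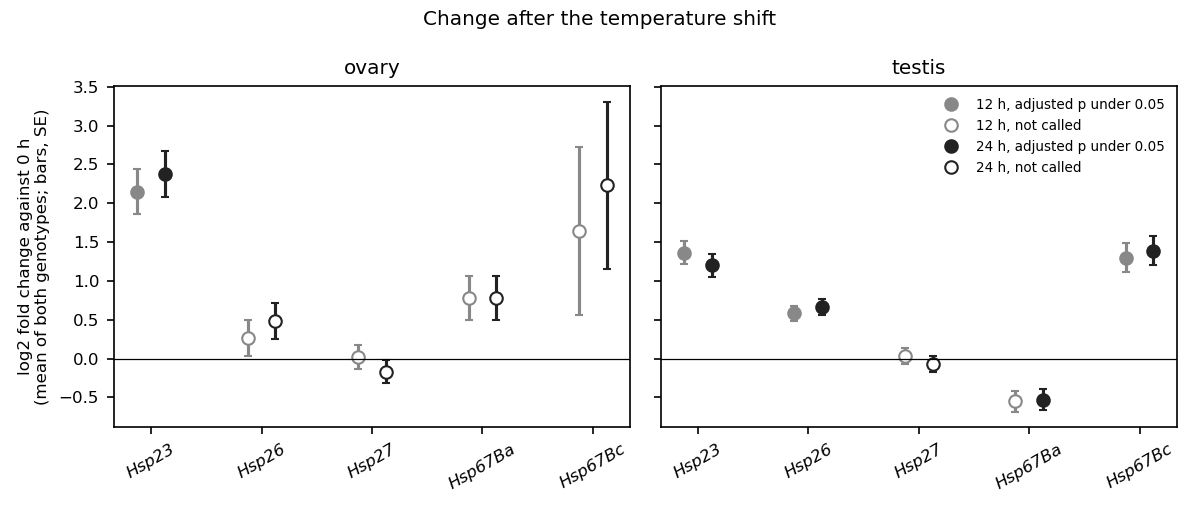
Log2 fold change against 0 h (y axis; mean of both genotypes, bars show the SE) of 5 small heat shock protein genes at 12 h and 24 h in ovaries (left) and testes (right), with filled points for an adjusted p under 0.05. Hsp23 was called in both tissues at both times, between 1.20 and 2.38, Hsp27 stayed within -0.17 and 0.03, and Hsp67Ba was above 0 in ovaries and below 0 in testes.

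Hsp67Ba, a little-studied alpha-crystallin protein, moved the other way in testes. It stood in TraF testes at 39.5 and 34.1 CPM at 0 h, 25 and 23.3 CPM at 12 h and 26.1 and 22.4 CPM at 24 h. In Control testes it stood at 33.1 and 36 CPM, then 26.5 and 23.4 CPM, then 29.9 and 20.5 CPM. All 4 unwarmed testis libraries lay above all 8 warmed ones.

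The testis warm comparison of Hsp67Ba gave -0.55 at 12 h (SE 0.134, adjusted p = 0.0508, edgeR), just outside the threshold, and -0.53 at 24 h (SE 0.134, adjusted p = 0.0257, edgeR), which was called lower. The 12 h value was called with RLE scaling (adjusted p = 0.0451, edgeR) and with DESeq2 (adjusted p = 0.00789). The 24 h call was lost without either TraF 24 h replicate, either Control 0 h replicate, TraF 0 h replicate 1 or Control 24 h replicate 2 (adjusted p from 0.0582 to 0.105, edgeR). Within genotypes it was -0.62 at both times in TraF and -0.48 and -0.44 in Control testes, and none of the 4 was called by edgeR without a replicate block.

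In tra2ts ovaries Hsp67Ba stood at 4.48 and 2.91 CPM at 0 h, 6.06 and 4.59 CPM at 12 h and 7.42 and 3.76 CPM at 24 h. In w1118 ovaries it stood at 3.55 and 2.36 CPM, then 7.39 and 4.89 CPM, then 4.83 and 6.56 CPM. Warmed and unwarmed libraries did not overlap in w1118 and overlapped in tra2ts. The warm comparison was 0.78 at both times and did not pass (adjusted p = 0.178 and 0.161, edgeR).

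The difference between the tissues was tested directly. For the control genotypes alone (w1118 minus Control), the change of Hsp67Ba was 1.52 higher on the log2 scale in ovaries at 12 h (adjusted p = 0.217, edgeR) and 1.4 higher at 24 h (adjusted p = 0.156, edgeR). No member was called by edgeR in these comparisons, while DESeq2 called Hsp67Ba in both (adjusted p = 0.0497 and 0.0447). Among the 12411 genes 0.113% and 1.36% were called by edgeR and 1020 and 1447 had an unadjusted p under 0.05. With both genotypes of each tissue averaged, a comparison added after the data were seen, the difference was 1.32 (SE 0.316, adjusted p = 0.0319, edgeR) at 12 h and 1.29 (SE 0.316, adjusted p = 0.0258, edgeR) at 24 h, where 2.76% and 4.75% of genes were called.

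That call of Hsp67Ba was lost without any one of 12 of the 16 libraries behind it at 12 h and 8 of the 16 at 24 h. The antisense transcript asRNA:CR43481 that overlaps Hsp67Ba was at 0.89 (adjusted p = 0.197, edgeR) and 0.83 (adjusted p = 0.219, edgeR) in the ovary warm comparisons and at -0.00 and 0.12 in those of testes, and its part in the Hsp67Ba counts was not tested. For Hsp23, which rose in both tissues, the averaged difference was 0.78 (adjusted p = 0.27, edgeR) at 12 h and 1.13 (adjusted p = 0.0623, edgeR) at 24 h, so a larger rise in ovaries than in testes was not called. With DESeq2 the value at 24 h was 1.18 and was called (adjusted p = 0.0131).

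Hsp67Bc, a chaperone that works with the co-chaperone Starvin in the clearance of misfolded proteins, had few reads in most libraries. In TraF testes it stood at 2.17 and 2.62 CPM at 0 h, 3.86 and 3.96 CPM at 12 h and 4.99 and 3.6 CPM at 24 h. In Control testes it stood at 0.983 and 1.45 CPM, then 4.83 and 4.3 CPM, then 4.13 and 5.34 CPM. All warmed testis libraries lay above all unwarmed ones.

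The testis warm comparison of Hsp67Bc gave 1.30 (SE 0.189, adjusted p = 0.00463, edgeR) at 12 h and 1.39 (SE 0.189, adjusted p = 0.00152, edgeR) at 24 h, and both calls held without any one library. In Control testes alone it was 1.90 (adjusted p = 0.0197, edgeR) and 1.96 (adjusted p = 0.00733, edgeR), and in TraF testes alone 0.69 (adjusted p = 0.296, edgeR) and 0.82 (adjusted p = 0.119, edgeR). The Control calls were lost without 3 of the 4 libraries at 12 h and 2 of the 4 at 24 h. The difference between the genotypes is the switch comparison given below, which did not pass.

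In ovaries Hsp67Bc rested on few reads and on single libraries. In tra2ts it stood at 1.24 and 0.328 CPM at 0 h, 0.614 and 0.621 CPM at 12 h and 7.04 and 0.71 CPM at 24 h. In w1118 it stood at 0.296 and 0.294 CPM, then 7.25 and 0.299 CPM, then 2.46 and 0.19 CPM. Replicates of 1 group differed by up to 24.2-fold, and 3 libraries, all of them replicate 1, stood above the rest.

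The same 3 libraries held the highest levels of Hsp68, an inducible Hsp70-family chaperone that was looked at after its values were seen. They were w1118 12 h replicate 1, with 76.8 CPM of Hsp68, tra2ts 24 h replicate 1, with 43.9 CPM, and w1118 24 h replicate 1, with 22.5 CPM, while the other 9 ovary libraries lay between 1.19 and 13.7 CPM. The ovary warm comparison of Hsp67Bc was 1.64 (adjusted p = 0.454, edgeR) at 12 h and 2.23 (adjusted p = 0.292, edgeR) at 24 h, and without the 3 libraries it was -0.17 and -0.36. At 12 h leaving out w1118 12 h replicate 1 alone gave -0.17. The 3 libraries were also those with the most Hsp67Bc, so its lower values without them followed from their choice. Their removal left groups with 1 library, so no calls of that fit are given.

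**Figure D3:**
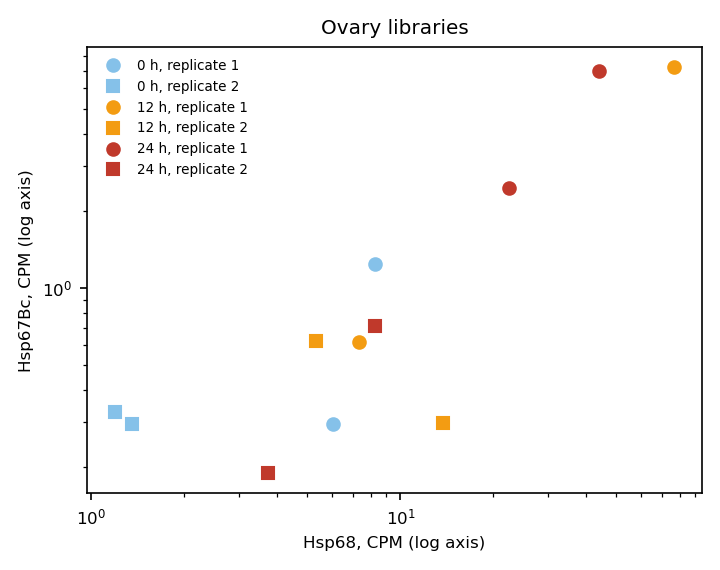
CPM of Hsp67Bc (y axis) against CPM of Hsp68 (x axis), both on log axes, in the 12 ovary libraries; colour gives the hours at the restrictive temperature and shape the replicate number. The 3 points at the upper right, with 2.46 to 7.25 CPM of Hsp67Bc and 22.5 to 76.8 CPM of Hsp68, are replicate 1 libraries of warmed ovaries.

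Between 12 h and 24 h no member was called in either tissue by edgeR or DESeq2, and 0 of the 5 had an unadjusted p under 0.05. In ovaries 0% of 8784 genes were called between these times, 306 with an unadjusted p under 0.05. In testes 0.0166% of 12083 were called, 730 with an unadjusted p under 0.05.

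The genotypes were compared at each time, to ask whether the small heat shock protein genes followed the DSX switch. Neither edgeR nor DESeq2 called a member between tra2ts and w1118 ovaries at 0, 12 or 24 h, with 0.273%, 0.387% and 0.535% of genes called, nor between TraF and Control testes, with 1.08%, 1.05% and 1% called. Of the 5 members 1 had an unadjusted p under 0.05 at 24 h in ovaries and 1 at 0 h in testes. So did 715 of all 8784 genes and 1198 of all 12083 genes in the same comparisons. The switch itself, the change from 0 h in tra2ts or TraF minus that in its control, called no member with either tool. In ovaries 0% of genes were called at both times by edgeR, with 58 and 117 at an unadjusted p under 0.05, and DESeq2 called 1 gene at each time. In testes 0.00828% were called at both times, with 259 and 376 at an unadjusted p under 0.05.

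For Hsp23 the switch value was -1.0 and 0.28 in ovaries and -0.21 and -0.22 in testes at 12 h and 24 h, with an adjusted p of 1 from edgeR in all 4. For Hsp67Bc in testes it was -1.20 (SE 0.378, unadjusted p = 0.00889) at 12 h and -1.14 (SE 0.376, unadjusted p = 0.0117) at 24 h, with an adjusted p of 1 from edgeR at both times. The TraF and Control groups of Hsp67Bc already lay apart at 0 h, at 2.17 to 2.62 against 0.983 to 1.45 CPM, a log2 difference of 0.99 that was not called (SE 0.282, adjusted p = 0.19, edgeR). At 12 h the order was the other way, with both TraF libraries below both Control libraries, and at 24 h the groups overlapped.

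Before warming the gonads of the control genotypes differed in 4 of the 5 tested members, in a comparison where 80.1% of 12411 genes were called, 31.1% higher and 48.9% lower in ovaries. Compared with Control testes, w1118 ovaries had a lower level of Hsp23 (log2 difference -5.66, SE 0.404, adjusted p = 6.22e-10, edgeR) and of Hsp67Ba (-3.54, SE 0.344, adjusted p = 3.95e-08, edgeR). They had a higher level of Hsp26 (1.23, SE 0.245, adjusted p = 0.000186, edgeR) and Hsp27 (0.70, SE 0.182, adjusted p = 0.00205, edgeR). The median over all genes was -0.73 in this comparison. Hsp67Bc, at -2.02 (SE 1.28, adjusted p = 0.153, edgeR), was not called, though DESeq2 called it at -2.35 (adjusted p = 0.0438).

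Per kilobase of exon the order of the genes differed between the tissues. In w1118 ovaries at 0 h Hsp26 stood at 1080 ± 92.4 CPM per kb (SD, n = 2), Hsp27 at 237 ± 25.3, Hsp23 at 3.98 ± 0.585, Hsp67Ba at 1.70 ± 0.489 and Hsp67Bc at 0.299 ± 0.00119 CPM per kb. In Control testes at 0 h Hsp26 stood at 458 ± 37.2 CPM per kb, Hsp23 at 202 ± 9.46, Hsp27 at 146 ± 0.892, Hsp67Ba at 20 ± 1.19 and Hsp67Bc at 1.23 ± 0.331 CPM per kb. Each neighbour in these orders was further apart than the spread of its 2 libraries, and Hsp27 stood above Hsp23 in ovaries and below it in testes. Taken over its unshared exonic bases alone, Hsp67Ba stood at 7.09 CPM per kb in those ovaries and 82.9 in those testes, which places it above Hsp23 in the ovaries.

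Of the summed CPM per kb of the 6 genes, Hsp26 made 81.5% to 86.2% in the ovary groups and 46.9% to 55.3% in the testis groups. Hsp22 entered this sum at 0 and Hsp67Ba over all its exonic bases, so the overlaps of both limit the sum and the shares. Hsp23 made 0.301% to 2.45% in ovaries, and in testes 27% in TraF and 24.4% in Control at 0 h and 36% to 40% in the warmed groups. In testes the sum was 791 and 827 CPM per kb at 0 h and between 1280 and 1430 CPM per kb in the warmed groups, further apart than 1 SD of each group. In ovaries the sum ran from 1230 to 1710 CPM per kb, with an SD of up to 576.

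**Figure D4:**
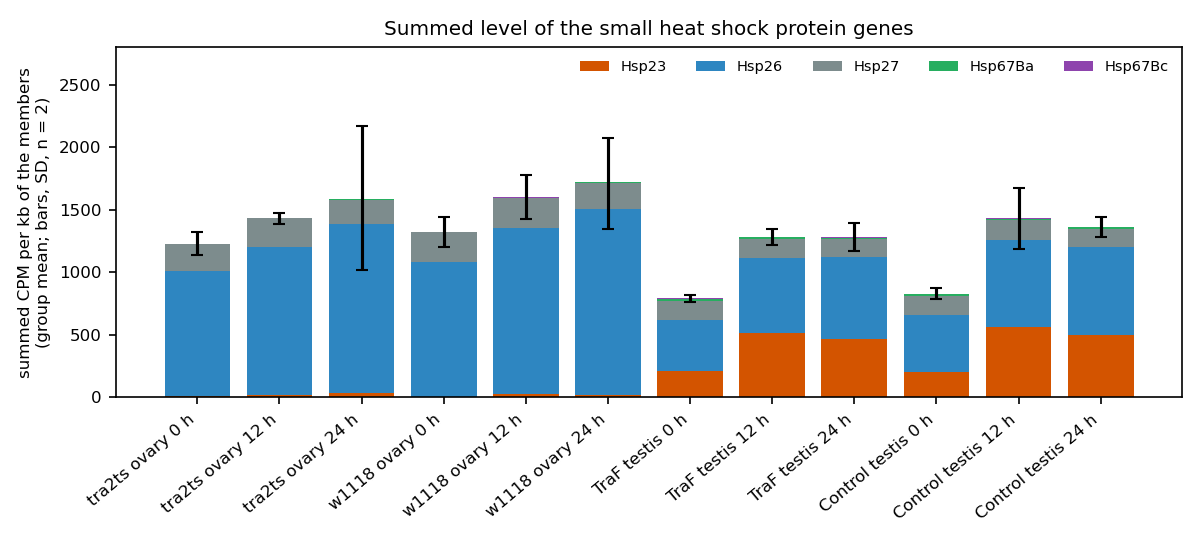
Summed level of the small heat shock protein genes in CPM per kb of exon (y axis) for the 12 groups, as stacked group means, with the SD of the sum over 2 libraries as bars. Hsp22 had 0 counts, and Hsp67Ba is taken over all its exonic bases. Hsp26 makes most of the sum in ovaries and about as much as the other genes together in testes, where the Hsp23 part is larger after 0 h.

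In ovaries edgeR called no gene of 2 further lists, other alpha-crystallin domain genes and heat response partners. Of 6 further alpha-crystallin domain genes 2 were tested there and 0 called at either time, and of 27 heat response partners found in the files (Hsf, Hsp70 family, Hsp83, Hsp60 and co-chaperone genes) 21 were tested and 0 called, with 8 at an unadjusted p under 0.05 at each time, against 1629 at 12 h and 1707 at 24 h of all 8784 genes. The nearest was DnaJ-1, the main Hsp40 co-chaperone, at 0.68 at 24 h (SE 0.165, adjusted p = 0.0521, edgeR). DESeq2 called 3 of the partners at both times, DnaJ-1, Hsf (0.43 at both times in edgeR) and the Hsp90 gene Hsp83 (-0.40 and -0.41). Of all 8784 tested genes it called 733 at 12 h and 856 at 24 h. The median log2 fold change at 12 h and 24 h was 0.11 and 0.18 for the partners and -0.03 and 0.31 for the alpha-crystallin genes.

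In testes 5 of the 6 further alpha-crystallin genes were tested. Of all tested genes 1.7% were called higher at 12 h and 6.79% at 24 h. Of the 5, 1 was called higher at each time, CG7409, which is annotated by number only. It stood at 4.1 and 4.1 CPM in Control and 4.73 and 9.9 CPM in TraF testes at 0 h, and at 10.9 to 26.1 CPM in the warmed libraries. The warm comparison gave CG7409 a value of 1.89 (SE 0.275, adjusted p = 0.00454, edgeR) at 12 h and 1.86 (SE 0.275, adjusted p = 0.00224, edgeR) at 24 h. In ovaries CG7409 did not exceed 0.138 CPM. The small heat shock protein gene l(2)efl was at 0.94 (adjusted p = 0.0724, edgeR) and 0.58 (adjusted p = 0.174, edgeR) in testes, not called by edgeR and called by DESeq2 at 12 h. The median of the 5 was 0.48 and 0.58.

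Of the 24 heat response partners tested in testes, edgeR called 2 higher at 12 h and 3 at 24 h, with medians of 0.03 and -0.00. Of all tested genes 1.7% were called higher at 12 h and 6.79% at 24 h. The partners called by edgeR are named here. They were Hsp70Bb, an inducible Hsp70 (1.89 and 1.55), CG11267, the mitochondrial co-chaperonin Hsp10 (0.59 and 0.72), and at 24 h the immunophilin gene Fkbp59 (0.54). Hsp70Bb rose in TraF testes, from 1.02 and 2.1 CPM at 0 h to 11 to 13.3 CPM when warm. Control testes lay between 0.385 and 1.71 CPM throughout. Between the genotypes Hsp70Bb was called higher in TraF at 12 h (3.45, adjusted p = 0.00632, edgeR) and 24 h (4.48, adjusted p = 0.00241, edgeR). Its rise was thus seen only in the genotype with UAS-tra[F], and the cause was not tested. Hsp70Bb is 1 of several nearly identical copies, among which reads can be misassigned. Hsf stood at 0.03 and 0.09 and Hsp83 at 0.01 and -0.00 in testes, and neither was called. DESeq2 called 2 of the partners at 12 h and 5 at 24 h, where it added Hsp110 and stv, the gene of Starvin. Of all 12083 tested genes it called 702 at 12 h and 1660 at 24 h.

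Of 15 ecdysone response genes in the files, 13 were tested in ovaries and 0 called by edgeR. Among the 13, 2 had an unadjusted p under 0.05 at each time, a share near that of all genes. DESeq2 called 1 at 24 h, where it called 856 of all 8784 genes. In testes 14 were tested, with medians of 0.08 and -0.05. Of these, edgeR called 1 higher at 12 h and 2 at 24 h, where 1.7% and 6.79% of all tested genes were called higher. Called higher in testes were MsrA, also known as Eip71CD, a methionine sulfoxide reductase (0.81 at 12 h and 0.92 at 24 h), and at 24 h ImpE3 (0.67). Of the 3 other genes in the 67B stretch, 1 was tested in ovaries and 3 in testes, and none was called in a warm comparison by either tool. Between the testis genotypes CG4456 was called, higher in TraF, at 0 h (1.43, adjusted p = 0.00424, edgeR), 12 h (1.48, adjusted p = 0.00341, edgeR) and 24 h (1.06, adjusted p = 0.0206, edgeR).

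The members were also compared by how their levels varied over the 24 libraries, on log2(CPM + 1) values centred within each tissue, as a description. Points share libraries and depth, and tissues differ in temperature and stock. Values were not centred within each time, so these correlations also hold the changes after warming given above. Hsp23 and Hsp26 had a Pearson correlation of 0.674 over both tissues (Spearman 0.657), 0.942 in the 12 testis libraries and 0.55 in the 12 ovary libraries. Hsp23 and Hsp67Ba had 0.751 in ovaries and -0.781 in testes (Spearman 0.699 and -0.469). Hsp27 had a correlation between -0.188 and 0.192 with each of the other members.

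Among 6105 genes of at least 5 CPM in both tissues, those most like Hsp23 were CG7800 (0.905), Mst85C (0.866) and CG10462 (0.857). For Hsp26 they were Mvd (0.914), BigH1 (0.901) and CG15601 (0.897). For Hsp27 they were CycB (0.755), Tmx3 (0.721) and EloA (0.704), and for Hsp67Ba qm (0.896), slif (0.858) and for (0.842). By tissue CycB had 0.843 with Hsp27 in ovaries and 0.389 in testes. The member most like Hsp23 was Hsp67Bc (0.689), a gene of few reads, exceeded by 103 other genes. The correlation of Hsp23 with Hsp26 was exceeded by 118 other genes, so members were not the nearest genes to Hsp23 by this measure.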

How the data were processed

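The members and gene lists were chosen with earlier results of these data known. Total RNA (200 ng per library) was made into unstranded TruSeq libraries and read as 76 bp single ends, per the labels' protocols. The authors used TopHat 1.4.1, build dm3 and HTSeq, per the submitters' processing notes. What they deposited is 1 table of unnormalized counts per library, of 15406 genes and 5 summary lines. The counting mode and annotation release are not given in the sources used here. The summary lines were left out, namely reads in no gene (1.07% to 2.48% of reads) and ambiguous reads (1.88% to 4.3%).

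Symbols and exonic lengths were matched by identifier for 14732 genes from a later annotation. Counts were tested in R 4.3.3 with edgeR 4.0.16 (TMM scaling, filterByExpr by group, glmQLFit and two-sided glmQLFTest, 1 mean per group, 12 libraries per tissue or all 24), which left 8784 genes in ovaries, 12083 in testes and 12411 over both. Alternatives were RLE scaling, no filter, DESeq2 1.42.0, a replicate block and leaving out each library. Those added after the data were seen were the average of genotypes in the comparison of tissues and the removal of the 3 ovary libraries with the highest Hsp68. The scripts were tested on simulated data. Python 3.11.15 and matplotlib 3.10.9 drew the figures.

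The replicates of a group differed well beyond sampling noise (chi-square per degree of freedom from 36.1 to 320). They are independent dissections, per the labels. The likeness of patterns was taken over genes averaging 5 CPM or more in both tissues, with a pseudocount of 1. All members are named in the comparisons. Other genes come from the lists (called genes, up to 6 a list), except Hsp68, DnaJ-1, l(2)efl, Hsf and Hsp83, which were chosen after their values were seen. Hsp110 and stv are named because DESeq2 called them in testes, and asRNA:CR43481 because it overlaps Hsp67Ba. Reads carry no molecular identifiers, and the bound for 0 counts covers counting error only. The 2 libraries of a group limit precision more than their depth does.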

Additional observations from a re-analysis of the deposited data

Results flagged for a closer look

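The change of Hsp67Ba after warming differed between the tissues when both genotypes of each were averaged, by 1.32 (SE 0.316, adjusted p = 0.0319, edgeR) on the log2 scale at 12 h and by 1.29 (SE 0.316, adjusted p = 0.0258, edgeR) at 24 h, ovary minus testis. A test of the difference between the tissues drew attention to it. In testes its 8 warmed libraries lay below its 4 unwarmed ones. In w1118 ovaries its 4 warmed libraries lay above the 2 unwarmed ones, and in tra2ts ovaries the times overlapped. The share of all genes with such separations was not counted. The tissues also differ in stock and in the temperature of the shift, which cannot be told apart from tissue.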

How the results depend on the processing

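The replicate numbers of the labels were checked for pairing. Deviations from group means correlated over 0.1 between same-numbered libraries in 13 of 15 pairs of groups in ovaries (median 0.35, lowest -0.622). In testes they did so in 10 of 15 (median 0.232, lowest -0.152). Same-numbered libraries thus deviated alike in most pairs of groups, though not in all. For Hsp23 and Hsp68, replicate 1 lay above replicate 2 in every ovary group. The main tests did not treat the numbers as pairs, so they leave this likeness out. A replicate block added the tissue difference of Hsp67Ba at 24 h in the control genotypes (1 call against 0), that of Hsp23 at 24 h with genotypes averaged (2 calls against 1) and Hsp67Ba in testes at 12 h (adjusted p = 0.0193, edgeR), and, outside the time courses of single genotypes, it changed no other count of members by over 1.5 times. Within genotypes the block added Hsp23 in w1118 ovaries at 12 h and 24 h (adjusted p = 0.0339 and 0.0253, edgeR), Hsp26 at 12 h in TraF and Control testes (adjusted p = 0.0409 and 0.0441, edgeR) and Hsp67Ba in TraF testes at 24 h (-0.62, adjusted p = 0.0472, edgeR). DESeq2 gave 1 call against 0 in the control tissue difference at 12 h and at 24 h, and 2 against 1 with genotypes averaged at 24 h. RLE scaling and no filter moved no count of members outside the time courses of single genotypes by over 1.5 times. Within genotypes, no filter added Hsp23 in w1118 ovaries at both times, and DESeq2 added it there and in tra2ts ovaries at 12 h, as well as Hsp26 at 12 h in TraF (adjusted p = 0.00536) and Control testes (adjusted p = 0.00469). Over all genes, DESeq2 called 733 against 204 in the ovary warm comparison at 12 h and 856 against 343 at 24 h. In testes at 12 h DESeq2 called 702 against 426. The block called 287 in ovaries at 12 h and 417 at 24 h. In testes it called 717 at 12 h and 1989 against 1477 at 24 h. No filter called 333 in ovaries at 12 h.

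Leaving out single libraries gave 0 to 1 called members in ovaries at 12 h and 1 to 2 at 24 h, 2 to 3 in testes at 12 h and 3 to 4 at 24 h, and, for the averaged tissue difference, 0 to 1 at 12 h and 0 to 2 at 24 h. Signs turned for Hsp27 at 12 h in ovaries (-0.06 to 0.09) and testes (-0.07 to 0.12), for Hsp67Bc in ovaries at 12 h (-0.17 to 2.24), and for the Hsp23 switch in ovaries at 24 h (-0.12 to 0.84) and testes at 12 h (-0.49 to 0.16). Without the 3 ovary libraries with the highest Hsp68, Hsp27 at 12 h was -0.06 and Hsp67Bc -0.17 at 12 h and -0.36 at 24 h. The cause was not tested, and groups left with 1 library are assumed to vary like the others. Of 408 single values with 1 library left out, 329 kept their direction and their side of the threshold. Counts of Hsp67Bc in ovaries, and the 2 libraries per group, limit what could be detected.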
